A study of Mus musculus with 6 samples.

Results

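The genes described here encode the enzymes that add methyl groups to lysines of histones and those that take them off. The set has 38 listed genes. A gene entered through the probe sets of the array whose annotation gives its symbol alone, and the probe set with the highest mean over all arrays stood for the gene. By this rule 36 of the 38 genes had a value, out of 19550 genes on the array, and Ash1l and Suv39h1 had none. Of the 36, 35 lay above the filter on dim genes (the 25th percentile of the mean value, 0.185) and were tested among 14662 genes. The demethylase gene Kdm4d lay below it, with values from 0.042 to 0.22 on the 6 arrays.

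Liver RNA of male mice on the C57BL/6NCrSlc background was measured on 6 arrays, 2 in each of 3 groups. The first group lacked SMP30/GNL and received no ascorbic acid (AA, vitamin C), and is called AA-deficient below. The second group, called AA-supplemented, also lacked SMP30/GNL and drank water with AA and EDTA. The third group was wild type and drank water without the vitamin. SMP30/GNL, encoded by Rgn, is a gluconolactonase on the path by which wild-type mice make their own AA. The CL-2 chow, which lacks AA, was common to all mice, while the labels leave out the age of the mice, the time on the diet and whether the other groups drank EDTA. The labels call the arrays of a group separate samples and name no animals, so every p-value covers the spread of these samples alone, and that spread may be technical. As a check of the labels, Rgn read 2.07 and 1.996 in wild type, 0.34 and 0.14 in AA-supplemented knockouts, and 0.23 and 0.30 in AA-deficient knockouts.

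Histone methyltransferases take the methyl group from S-adenosylmethionine and place it on a given lysine, with most of them using a SET domain and Dot1l a different fold. Methylation of histone H3 at lysine 4 (H3K4) marks promoters and enhancers, methylation at lysine 36 (H3K36) and lysine 79 (H3K79) marks transcribed gene bodies, and methylation at lysine 9 (H3K9) and lysine 27 (H3K27) marks silent chromatin. Demethylases are of 2 kinds. Kdm1a and Kdm1b oxidise the methyl group with the flavin FAD, and the Jumonji (JmjC) enzymes hydroxylate it with iron, oxoglutarate and oxygen, where ascorbate keeps the iron in its reduced state. The study asked how loss of AA acts on liver transcripts, and these arrays measure the transcripts of the enzymes, not their activity and not histone methylation.

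Promoter sequences are shown for 3 genes whose transcripts rose in AA-deficient knockouts (Kmt2a, Kmt2c and Kmt2d, below) and for Kdm1a, whose values hardly differed between the groups. They come from RefSeq (GRCm38.p6), which lists 27 of the 36 genes in the table used, and run 5′ to 3′ over the 250 bases before the transcription start. Capitals mark every match, on either strand, to any of the motifs searched, and matches may overlap. GGGCGG is the GC box bound by factors of the Sp and KLF families. CCAAT is the box bound by the trimeric factor NF-Y, and the core motif of ETS factors is written CCGGAA here. A core promoter box was searched as TATAAA, and an E-box of the kind bound by basic helix-loop-helix factors as CACGTG. A response element of the cyclic AMP pathway was searched as TGACGTC. The core bound by hypoxia-inducible factors, ACGTG, lies within every E-box of the form above.
Kmt2a, chr9:44881290-44881539, minus strand: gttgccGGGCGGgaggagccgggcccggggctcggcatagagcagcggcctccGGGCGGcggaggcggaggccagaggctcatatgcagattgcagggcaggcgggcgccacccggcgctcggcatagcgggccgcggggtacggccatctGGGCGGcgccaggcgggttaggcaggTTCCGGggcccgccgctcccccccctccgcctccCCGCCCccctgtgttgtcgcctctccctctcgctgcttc
Kmt2c, chr5:25498784-25499033, minus strand: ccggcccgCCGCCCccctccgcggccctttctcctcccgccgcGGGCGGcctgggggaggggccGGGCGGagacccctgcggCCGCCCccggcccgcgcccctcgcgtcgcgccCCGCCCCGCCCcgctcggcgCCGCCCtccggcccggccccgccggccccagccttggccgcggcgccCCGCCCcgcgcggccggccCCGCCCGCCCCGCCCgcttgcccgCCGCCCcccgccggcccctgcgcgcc
Kmt2d, chr15:98871206-98871455, minus strand: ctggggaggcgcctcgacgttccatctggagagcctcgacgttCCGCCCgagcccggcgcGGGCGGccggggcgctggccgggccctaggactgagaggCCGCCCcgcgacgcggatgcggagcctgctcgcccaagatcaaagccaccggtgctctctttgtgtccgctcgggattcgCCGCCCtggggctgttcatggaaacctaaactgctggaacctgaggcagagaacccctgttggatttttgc
Kdm1a, chr4:136602724-136602973, minus strand: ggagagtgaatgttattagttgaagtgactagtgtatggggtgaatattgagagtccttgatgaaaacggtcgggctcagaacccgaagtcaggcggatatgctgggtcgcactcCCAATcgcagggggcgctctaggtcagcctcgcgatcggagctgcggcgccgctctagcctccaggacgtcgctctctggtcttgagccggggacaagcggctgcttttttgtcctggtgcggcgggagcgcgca
The window of Kmt2a held 4 GC boxes and 1 ETS core, that of Kmt2c 12 GC boxes and that of Kmt2d 4 GC boxes. Kdm1a had 0 GC boxes and 1 CCAAT box. Among genes not said to rise below, Setd2 had 7 GC boxes and Kdm1b 6, while Ezh1 and Setd7 had 0. Kmt2e and Kdm2a, which also rose, have no entry in the table used. Whether GC boxes go with the differences was not tested. Of the 27 genes, 17 held a GC box in their first listed promoter, against 32.9% of 27025 genes of every kind in the table. TATAAA occurred in 0 of the 27 and in 13.0% of all, CCAAT in 8 of 27 and 34.5%, and the ETS core in 6 of 27 and 12.2%. CACGTG was found in 2 (6.05% of all), TGACGTC in 2 (2.88%) and ACGTG in 7 (16.6%). The median window of these genes was 63.6% G and C with 21 CpG pairs, against 52.0% and 6 over the whole table. These matches are letters in a window and do not show that a factor binds there.

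Values are given on every array in the deposited log units, and differences between group means (n = 2 each) with their standard error (SE). The log base was not stated in the labels. Over all genes the values spanned -0.58 to 2.51, and folds are printed on a log10 reading of them, which gives the largest folds of the usual bases. Differences were tested with limma across all genes, with Benjamini-Hochberg adjustment, and a gene is said to pass, or to be called, when its adjusted p is under 0.05. The medians of the arrays lay between 0.350 and 0.392, and arrays of the same group correlated at 0.965 or above. All 8 hepatocyte markers passed the filter, and their mean was 2.06 to 2.24 on the 6 arrays, as the label liver requires. In whole tissue, fewer cells of a type and less RNA per cell cannot be told apart. Wild-type array 1 lay below wild-type array 2 for 31 of the 35 genes tested, against 47.5% of all genes, and was the lowest of the 6 arrays for 27 of them. The median gap between these arrays was -0.070 over the 35 genes and 0.0043 over all genes. AA-deficient array 1 lay below array 2 for 29 of the 35 genes, against 50.5% of all genes. Both comparisons with wild type are therefore also given without either wild-type array.

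In all, 5 genes rose in AA-deficient knockouts against wild type and none fell. They were Kmt2d, Kmt2a, Kmt2c and Kmt2e, genes with the KMT2 name, from 2.77-fold down to 1.89-fold, and the JmjC demethylase gene Kdm2a at 1.65-fold. Of all genes tested, 4.63% passed in this comparison and 3.08% passed as higher. An unadjusted p under 0.05 was found for 13 of the 35 genes and for 20.4% of all genes. The differences of all 35 genes had a median of 0.10 and 29 were positive, while the median over all genes was -0.0034 and 48.5% were positive. The AA-deficient arrays were both above both wild-type arrays for 23 of the 35 genes and both below for 4, against 27.6% and 26.9% of all genes.

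**Figure D1:**
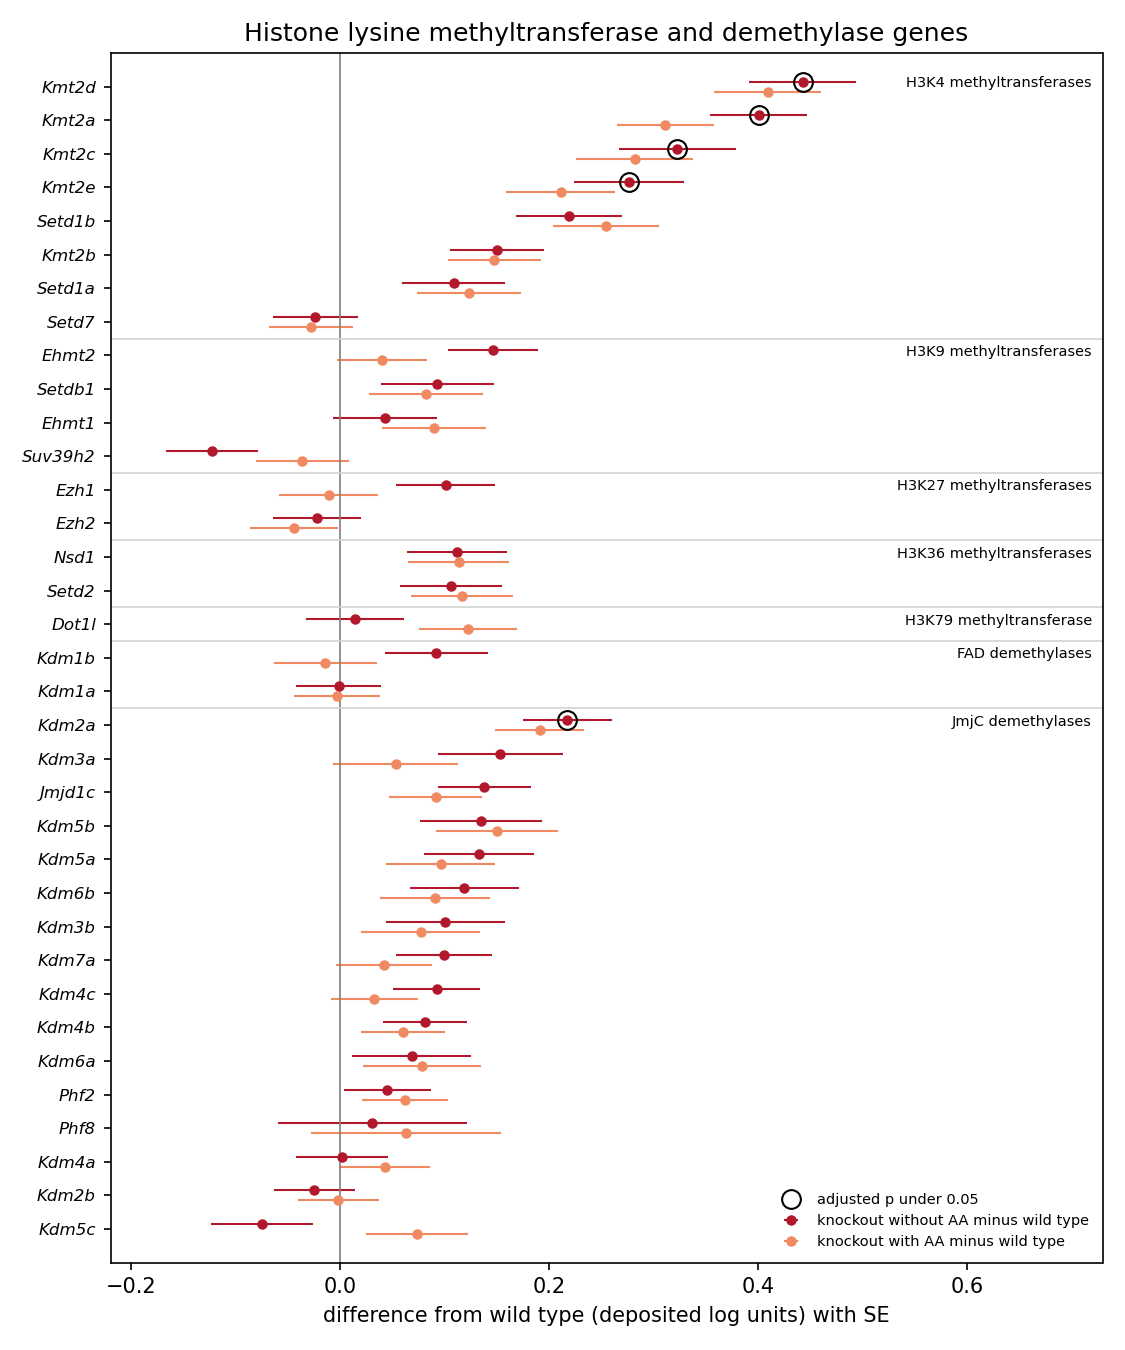
Difference of each knockout group from wild type (x axis, deposited log units; bars are the SE) for the 35 genes tested, grouped by the histone residue or cofactor of the enzyme; rings mark an adjusted p under 0.05. The ringed genes are Kmt2d, Kmt2a, Kmt2c, Kmt2e and Kdm2a, all in AA-deficient knockouts, and both series of points share the same 2 wild-type arrays.

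The AA-supplemented knockouts were compared with the same 2 wild-type arrays, so this comparison is no independent repeat. None of the 35 genes passed in limma (0 called), while 12 had an unadjusted p under 0.05, against 10.6% of all genes, and 0.00682% of all genes passed, which is 1 gene, Rgn. With a trend and robust prior in limma 4 of the 35 passed, namely Kmt2d, Kmt2a, Kmt2c and Setd1b (adjusted p = 0.00927, 0.0250, 0.0394 and 0.0320). The 0.00682% of all genes belongs to the fit as reported, and under this prior more than that 1 gene passed. The last section gives the range of calls over all genes under the alternatives with no array left out, this prior included. The differences were positive for 28 of the 35 genes, with a median of 0.078 against -0.0017 over all genes. Without wild-type array 1 the median was 0.038 (28 positive) and without array 2 it was 0.13 (31 positive), and neither fit gave a call in the set. The AA-supplemented arrays were both above wild type for 23 genes and both below for 3, against 19.8% and 18.8% of all genes.

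Within the knockouts, the supply of AA gave no call among the 35 genes. In limma 0 passed, 3 had an unadjusted p under 0.05 (Kdm5c, Ehmt2 and Ezh1), and 0 passed with a trend and robust prior. Of all genes 0.205% passed and 9.92% had an unadjusted p under 0.05. The difference of AA-deficient from AA-supplemented knockouts had a median of 0.011 and was positive for 21 of the 35 genes. The sign of that median turned with 1 array, being -0.0095 without AA-deficient array 2 and 0.041 without AA-deficient array 1, and it was 0.0054 without AA-supplemented array 2. The groups did not overlap for 9 genes that were higher and 5 that were lower, against 19.8% and 17.5% of all genes. A test for any difference among the 3 groups (limma's moderated F) passed for Kmt2d and Kmt2a (adjusted p = 0.0161 and 0.0192), 2 of the 35, against 1.36% of all genes. Those calls were lost without either wild-type array.

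Among the 8 H3K4 methyltransferase genes, 4 rose in AA-deficient knockouts and 7 had a positive difference from wild type, with a median of 0.25 (0.19 without wild-type array 1 and 0.30 without array 2). Kmt2a to Kmt2d, Setd1a and Setd1b encode enzymes that work in large complexes named COMPASS or MLL. Kmt2d and Kmt2c encode the enzymes that place H3K4 monomethylation at enhancers. Kmt2d (Entrez 381022, probe set 10432298) read 0.83 and 0.88 in AA-deficient knockouts, 0.81 and 0.83 in AA-supplemented knockouts, and 0.35 and 0.47 in wild type. All 4 knockout arrays were far above both wild-type arrays, and the knockout groups overlapped. Kmt2d rose by 0.44 (SE 0.051, adjusted p = 0.00749 in limma), 2.77-fold, in AA-deficient knockouts, and its difference in AA-supplemented knockouts was 0.41 (adjusted p = 0.109), 2.57-fold. Between the knockouts it differed by 0.033, with a 95% interval of -0.084 to 0.15.

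Kmt2c (Entrez 231051, probe set 10528723) read 0.85 and 0.90 in AA-deficient knockouts, 0.85 and 0.81 in AA-supplemented knockouts, and 0.47 and 0.62 in wild type. The wild-type arrays were again the lowest and also the most spread. It rose by 0.32 (SE 0.056, adjusted p = 0.0262 in limma), 2.10-fold, in AA-deficient knockouts, and differed by 0.28 (adjusted p = 0.190), 1.91-fold, in AA-supplemented knockouts. The knockout groups differed by 0.041, with an interval of -0.089 to 0.17.

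Kmt2a, the founding MLL gene, encodes an enzyme that keeps homeotic gene promoters active. Kmt2a (Entrez 214162, probe set 10592942) read 0.71 and 0.80 in AA-deficient knockouts, 0.65 and 0.68 in AA-supplemented knockouts, and 0.33 and 0.38 in wild type. The 3 groups did not overlap, with the AA-deficient arrays highest and wild type lowest. The gene rose by 0.40 (SE 0.046, adjusted p = 0.00749 in limma), 2.52-fold, in AA-deficient knockouts. The difference of AA-supplemented knockouts from wild type was 0.31 (adjusted p = 0.135), 2.05-fold. That between the knockout groups was 0.089 (adjusted p = 0.600), with an interval of -0.018 to 0.20.

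Kmt2e is placed in the class by its KMT2 name alone, and its SET domain is not known as an active methyltransferase. Kmt2e (Entrez 69188, probe set 10520048) read 0.997 and 1.06 in AA-deficient knockouts, 0.95 and 0.97 in AA-supplemented knockouts, and 0.69 and 0.82 in wild type. Here too the groups fell in separate ranges in the same order. The gene rose by 0.28 (SE 0.052, adjusted p = 0.0322 in limma), 1.89-fold, in AA-deficient knockouts and differed by 0.21 (adjusted p = 0.233), 1.63-fold, in AA-supplemented knockouts. Between the knockouts the difference was 0.065, with an interval of -0.056 to 0.19.

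Setd1b, a subunit of the SET1 complex that trimethylates H3K4 at promoters, missed the threshold narrowly. Setd1b (Entrez 208043, probe set 10525489) read 0.970 and 0.999 in AA-deficient knockouts, 0.98 and 1.06 in AA-supplemented knockouts, and 0.72 and 0.81 in wild type. Both knockout groups lay above wild type and overlapped each other. The difference from wild type was 0.22 (SE 0.051, adjusted p = 0.0537 in limma), 1.66-fold, in AA-deficient knockouts and 0.25 (adjusted p = 0.190), 1.80-fold, in AA-supplemented knockouts. It passed in AA-deficient knockouts with a filter at the 50th percentile (adjusted p = 0.0290), with a trend and robust prior (0.0118) and with only these groups in the fit (0.0409).

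The other 3 genes of the class did not pass. Kmt2b, the closest relative of Kmt2a, read 0.61 and 0.64 in AA-deficient knockouts, 0.62 and 0.63 in AA-supplemented knockouts, and 0.43 and 0.52 in wild type, a difference of 0.15 in either knockout group (adjusted p = 0.106 and 0.340 in limma). Setd1a, the paralogue of Setd1b, differed by 0.11 and 0.12 (adjusted p = 0.270 and 0.441). Setd7, which methylates H3K4 and many non-histone proteins outside these complexes, lay between 0.42 and 0.47 on all 6 arrays, and its differences were -0.024 and -0.028. Grouping the 5 KMT2 genes together was chosen after their values were seen: their median difference from wild type was 0.32 in AA-deficient and 0.28 in AA-supplemented knockouts, and the other 30 genes had medians of 0.093 and 0.068. Without wild-type array 1 the KMT2 medians were 0.25 and 0.21 and those of the other genes 0.051 and 0.024. Without wild-type array 2 they were 0.40 and 0.34, and 0.13 and 0.11.

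**Figure D2:**
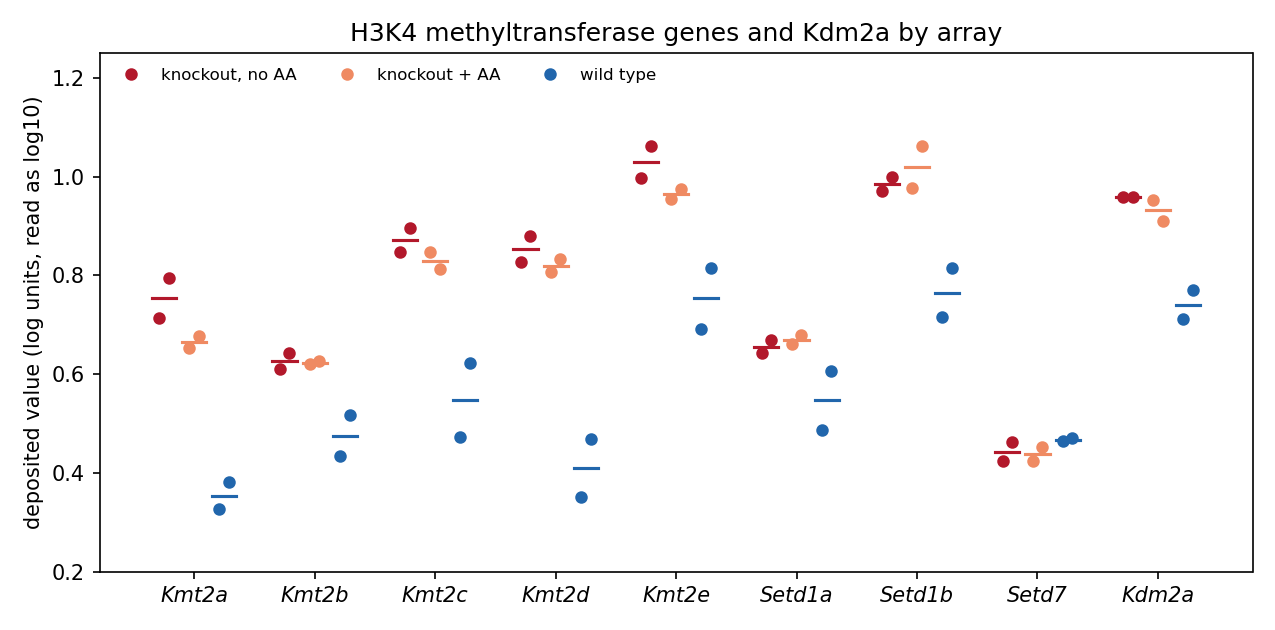
Deposited value (y axis, log units read as log10) of the 8 H3K4 methyltransferase genes and Kdm2a on each array, with 2 points a group and a line at the group mean. For every gene shown except Setd7 both wild-type arrays lie below all 4 knockout arrays, as they do for 20 of the 35 genes tested. The share of all genes with this pattern was not counted. Over all genes tested, both AA-deficient arrays lay above wild type for 27.6% and both AA-supplemented arrays for 19.8%.

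The calls rest on both wild-type arrays. Without wild-type array 1, none of the 35 genes passed against wild type in AA-deficient knockouts, and the differences of Kmt2d, Kmt2a, Kmt2c, Kmt2e and Kdm2a were 0.38, 0.37, 0.25, 0.21 and 0.19 (adjusted p = 0.104, 0.116, 0.172, 0.213 and 0.239 in limma). Without wild-type array 2 none passed either, and the differences were 0.50, 0.43, 0.40, 0.34 and 0.25 (adjusted p = 0.0639, 0.0737, 0.0737, 0.0859 and 0.131). Each of these fits leaves 1 wild-type array, and nearly all calls over all genes were lost in them too. The median difference of the 35 genes was 0.065 without array 1 (26 positive) and 0.15 without array 2 (30 positive). Leaving out either AA-deficient array kept the calls of Kmt2d and Kmt2a and lost those of Kmt2c (adjusted p = 0.0730 and 0.137), Kmt2e (0.0824 and 0.186) and Kdm2a (0.154 and 0.193).

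Of the 4 H3K9 methyltransferase genes with a value, 0 passed in limma in any comparison, and in AA-deficient knockouts against wild type 3 were positive and 2 had an unadjusted p under 0.05. Ehmt2 encodes G9a, which dimethylates H3K9 in active regions of the genome. Ehmt2 (Entrez 110147, probe set 10444524) read 0.86 and 0.87 in AA-deficient knockouts, 0.79 and 0.72 in AA-supplemented knockouts, and 0.72 and 0.72 in wild type. The AA-deficient arrays were the highest, and AA-supplemented array 2 lay beside wild type. The difference of AA-deficient knockouts was 0.11 from AA-supplemented knockouts (SE 0.043, adjusted p = 0.455 in limma; interval 0.0076 to 0.21) and 0.15 from wild type (adjusted p = 0.102). Ehmt1, which encodes the partner of G9a, differed from wild type by 0.043 and 0.090 in AA-deficient and AA-supplemented knockouts, and Setdb1, which silences retroelements, by 0.093 and 0.082. Suv39h2, an enzyme of constitutive heterochromatin, had the most negative difference of the whole set in AA-deficient knockouts, -0.12 (adjusted p = 0.168), with values of 0.28 and 0.20 there, 0.32 and 0.33 in AA-supplemented knockouts, and 0.37 and 0.35 in wild type.

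The 2 H3K27 methyltransferase genes encode alternative catalytic subunits of Polycomb repressive complex PRC2. Ezh1, the form of non-dividing cells (Entrez 14055, probe set 10391378), read 0.87 and 0.90 in AA-deficient knockouts, 0.82 and 0.73 in AA-supplemented knockouts, and 0.76 and 0.81 in wild type. Both AA-deficient arrays were above the other 4, which overlapped. The difference between the knockout groups was 0.11 (SE 0.047, adjusted p = 0.490 in limma; interval 0.0026 to 0.22), that of AA-deficient knockouts from wild type 0.10 (adjusted p = 0.284), and that of AA-supplemented knockouts -0.011. Ezh2, the form of dividing cells, ranged from 0.63 to 0.70 with no difference past 0.05 in size. The 7 proliferation markers with a value had means of 0.308 to 0.426 on the 6 arrays. Mki67 and Top2a lay below the filter, and Pcna, which also serves DNA repair, read 1.02 to 1.36.

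Nsd1 and Setd2 methylate H3K36, and neither passed. Nsd1 differed from wild type by 0.11 in AA-deficient knockouts (adjusted p = 0.244 in limma) and by 0.11 in AA-supplemented knockouts (adjusted p = 0.467). The differences of Setd2 were 0.11 (adjusted p = 0.276) and 0.12 (adjusted p = 0.461). For both genes all 4 knockout arrays were above both wild-type arrays.

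Dot1l, the H3K79 methyltransferase, had its highest values in AA-supplemented knockouts. Dot1l (Entrez 208266, probe set 10364856) read 0.52 and 0.58 in AA-deficient knockouts, 0.62 and 0.70 in AA-supplemented knockouts, and 0.51 and 0.56 in wild type. The AA-supplemented arrays were above the other 4. The difference of AA-deficient from AA-supplemented knockouts was -0.11 (SE 0.047, adjusted p = 0.507 in limma; interval -0.22 to 5.05e-04), and AA-supplemented knockouts differed from wild type by 0.12 (adjusted p = 0.421).

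The FAD demethylase genes did not pass. Kdm1a, which encodes LSD1 and removes H3K4 methylation, lay between 0.57 and 0.60 on all 6 arrays, and its differences in the 3 comparisons ran from -0.0031 to 0.0015, with an interval of -0.096 to 0.093 for AA-deficient knockouts against wild type. Kdm1b (Entrez 218214, probe set 10404941), its relative known for its role in oocytes, read 0.71 and 0.71 in AA-deficient knockouts, 0.65 and 0.55 in AA-supplemented knockouts, and 0.58 and 0.65 in wild type. The AA-deficient arrays were the highest. They differed from AA-supplemented knockouts by 0.11 (SE 0.049, adjusted p = 0.543 in limma; interval -0.0079 to 0.22) and from wild type by 0.092 (adjusted p = 0.351).

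The JmjC demethylases, whose catalysis uses ascorbate, had 17 genes with a value, 16 of them tested. In AA-deficient knockouts against wild type 14 of the 16 were positive, the median was 0.096 (0.060 without wild-type array 1 and 0.14 without array 2) and 1 rose, Kdm2a. In AA-supplemented knockouts 15 were positive, with a median of 0.068 (0.020 without wild-type array 1 and 0.12 without array 2). Between the knockout groups, where the supply of AA differed and the genotype did not, 9 were positive and 7 negative, the median was 0.022 and the differences ran from -0.15 to 0.10. With 1 knockout array left out that median ran from 5.0e-04 (without AA-supplemented array 2) through 0.0074 (without AA-deficient array 2) to 0.037 (without AA-deficient array 1).

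**Figure D3:**
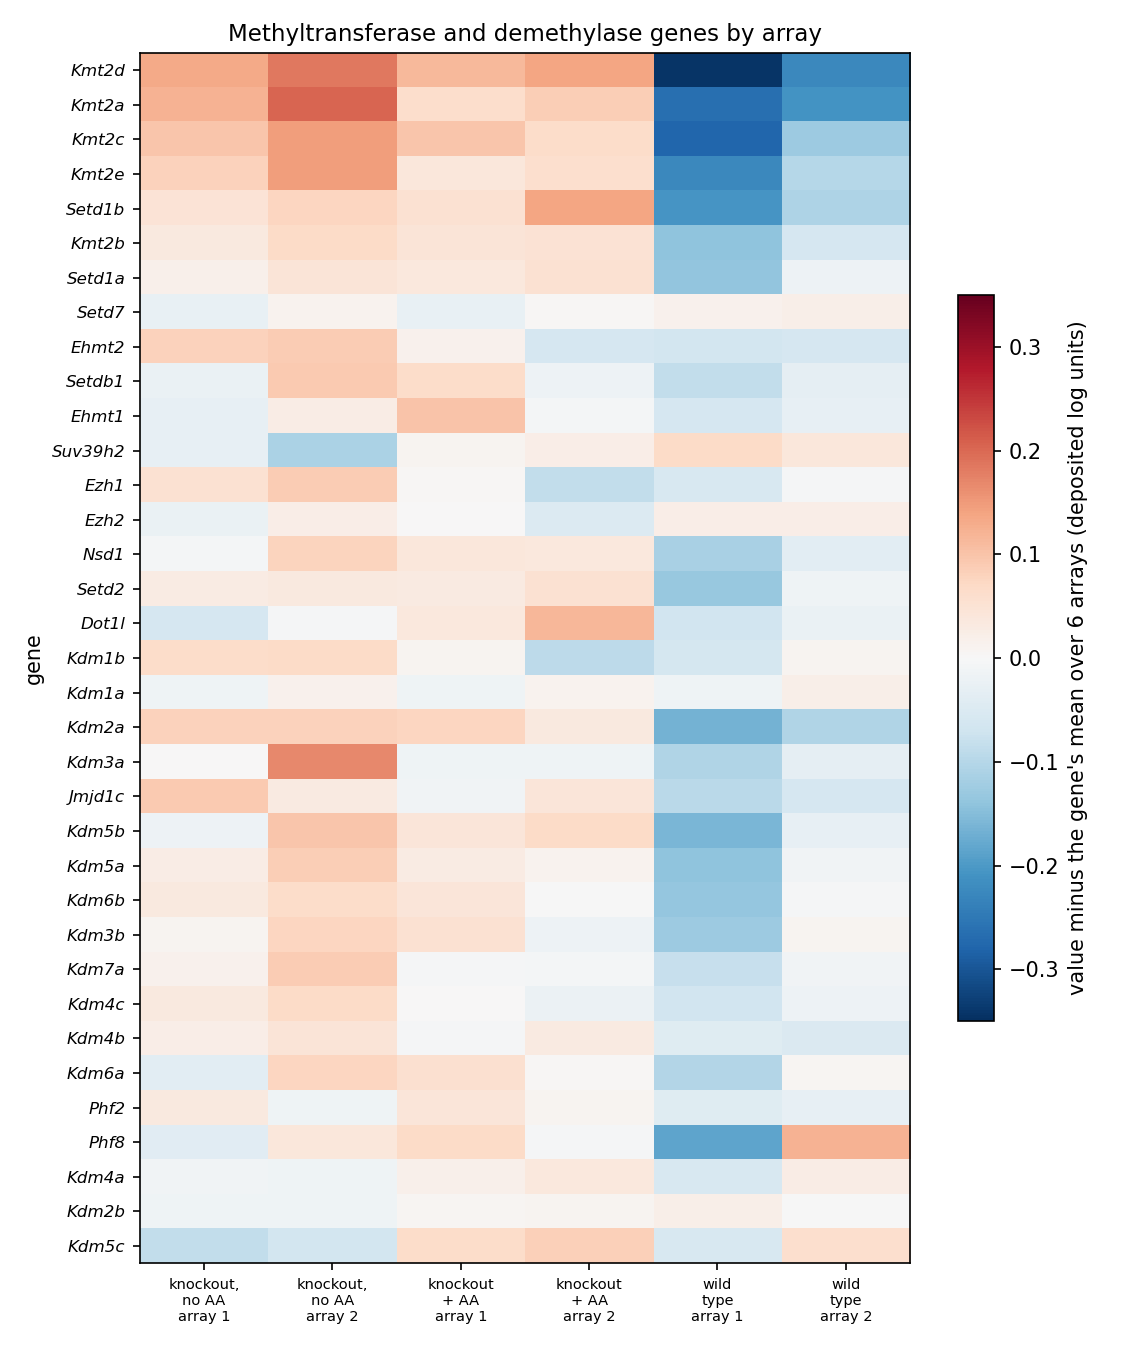
Value of each of the 35 genes on each array minus the gene's mean over the 6 arrays (colour, deposited log units; blue is below and red above the mean), in the order of the enzyme classes. Wild-type array 1 is the lowest array for 27 genes, and the deepest blue lies in the wild-type columns of Kmt2d, Kmt2a and Kmt2c.

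Kdm2a removes methyl groups from H3K36 and binds unmethylated CpG islands. Kdm2a (Entrez 225876, probe set 10464728) read 0.96 and 0.96 in AA-deficient knockouts, 0.95 and 0.91 in AA-supplemented knockouts, and 0.71 and 0.77 in wild type. All knockout arrays were above both wild-type arrays. The gene rose by 0.22 (SE 0.043, adjusted p = 0.0356 in limma), 1.65-fold, in AA-deficient knockouts and differed by 0.19 (adjusted p = 0.199), 1.55-fold, in AA-supplemented knockouts. The knockout groups differed by 0.026, with an interval of -0.073 to 0.13. Its paralogue Kdm2b stayed between 0.24 and 0.28 on all arrays, with a difference of -0.025 in AA-deficient knockouts from wild type.

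Kdm5c, an X-linked demethylase of trimethylated H3K4, had the smallest p between the knockout groups. Kdm5c (Entrez 20591, probe set 10602644) read 0.96 and 0.98 in AA-deficient knockouts, 1.10 and 1.12 in AA-supplemented knockouts, and 0.98 and 1.10 in wild type. The AA-deficient arrays were the lowest and the AA-supplemented arrays the highest, while the wild-type arrays spanned nearly the whole gap. The difference was -0.15 (SE 0.049, unadjusted p = 0.0160, adjusted p = 0.336 in limma), 1.41-fold lower in AA-deficient knockouts, with an interval of -0.26 to -0.036. Against wild type, AA-deficient knockouts differed by -0.075 (adjusted p = 0.445) and AA-supplemented knockouts by 0.074 (adjusted p = 0.648). The paralogues Kdm5a and Kdm5b had positive differences from wild type, 0.13 and 0.13 in AA-deficient and 0.096 and 0.15 in AA-supplemented knockouts, without passing.

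The remaining JmjC genes also missed the threshold. Kdm3a, which encodes an H3K9 demethylase of the KDM3 group, differed from wild type by 0.15 in AA-deficient knockouts (adjusted p = 0.197 in limma), with arrays at 0.51 and 0.68, and by 0.053 in AA-supplemented knockouts. Kdm3b differed by 0.10 and 0.077, and Jmjd1c, the third gene of that group, by 0.14 (adjusted p = 0.128) and 0.091. The KDM4 enzymes act on H3K9 and H3K36: Kdm4b differed by 0.081 and 0.060, Kdm4c by 0.092 and 0.032, and Kdm4a by 0.0014 and 0.042. The H3K27 demethylase genes Kdm6a and Kdm6b differed by 0.068 and 0.12 in AA-deficient and by 0.078 and 0.091 in AA-supplemented knockouts. Kdm7a, Phf2 and Phf8 form the group whose plant homeodomain finger reads methylated H3K4, and they differed by 0.099, 0.045 and 0.031 in AA-deficient knockouts. Phf8 had the widest replicate gap of the set, with 0.39 and 0.70 in wild type.

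For 5 of the 36 genes more than 1 probe set carried the symbol. The second probe set of Kmt2d, at 0.40 and 0.40 in AA-deficient knockouts, 0.33 and 0.43 in AA-supplemented knockouts, and 0.053 and 0.18 in wild type, differed from wild type by 0.28 and 0.26. That of Setd1b differed by 0.16 and 0.15, that of Jmjd1c by 0.25 and 0.18, that of Setd2 by 0.15 and 0.17, and that of Kdm7a by 0.11 and 0.036, in AA-deficient and AA-supplemented knockouts. Each second probe set thus had the sign of the first in both comparisons with wild type.

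Gene span, introns included, moved with these differences over all genes. Across 14620 genes with a span, the Spearman correlation of span with the difference of AA-deficient knockouts from wild type was 0.24, and across the 35 genes described it was 0.012, both descriptions across genes read on the same arrays. Of the 2924 genes tested that were at least 63.3 kb long, 8.07% were called higher and 66.6% were positive. Of the 35 genes 18 were that long, of which 16 were positive and 4 called (Kmt2a at 78.0 kb, Kmt2c at 227 kb, Kmt2e at 71.2 kb and Kdm2a at 82.6 kb), with a median difference of 0.10. Of the 17 shorter genes 13 were positive and 1 was called (Kmt2d at 42.4 kb), also with a median of 0.10. Over all genes tested, of any span, 3.08% were called higher and 48.5% were positive. With the trend on span removed from each array, 4 of the 35 genes passed, Kdm2a no longer among them (adjusted p = 0.0582), 25 were positive and the median was 0.069. The count of all genes that passed in that setting is given in the last section. The part of span in these differences was not tested further.

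**Figure D4:**
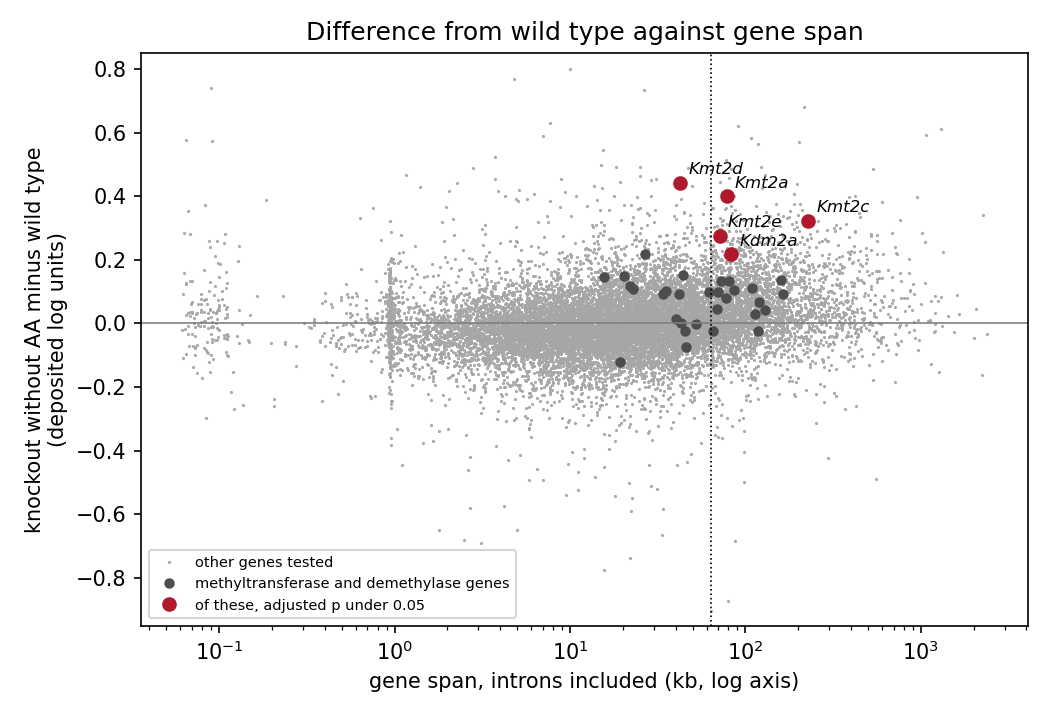
Difference of AA-deficient knockouts from wild type (y axis, deposited log units) against gene span (x axis, kb, log axis) for 14619 genes, with the 35 methyltransferase and demethylase genes in dark grey or, where called, red; the dotted line is at 63.3 kb, and 1 gene (Rgn) lies outside the range drawn. The called genes sit among the higher points on both sides of the line.

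The proteins that work with these enzymes are encoded by genes that gave no call. Of 10 subunits of COMPASS and MLL complexes, some shared and some found in only certain complexes, 3 had a positive difference of AA-deficient knockouts from wild type, with a median of -0.029, and 0 passed in limma (2 with an unadjusted p under 0.05, where 20.4% of all genes had one, as for the lists that follow). Ncoa6 and Hcfc1 had the highest differences, 0.20 (adjusted p = 0.068) and 0.16 (adjusted p = 0.153). The core subunit gene Wdr5 differed by -0.090 (adjusted p = 0.287). Of 8 PRC2 partners 3 were higher, with a median of -0.0096, and 0 passed (0 at an unadjusted p under 0.05). The LSD1 corepressor complex had 4 of 6 higher, a median of 0.028 and 0 passing (2 unadjusted). Among 14 other lysine methyltransferase genes tested 10 were higher, with a median of 0.079 and 0 passing (4 unadjusted), and of 11 other JmjC proteins 6 were higher, with a median of 0.0041 and 0 passing (0 unadjusted).

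The enzymes that supply the cofactors were mostly without a call. Of 6 enzymes of methyl donor supply and use that were tested, 2 had a positive difference from wild type in AA-deficient knockouts and 1 fell. That gene was Nnmt, whose product spends S-adenosylmethionine on nicotinamide. Nnmt read 1.62 and 1.71 in AA-deficient knockouts, 1.90 and 1.93 in AA-supplemented knockouts, and 1.94 and 1.85 in wild type. The AA-deficient arrays were below the other 4, and the gene fell by 0.23 (SE 0.051, adjusted p = 0.045 in limma) against wild type. Its difference between the knockout groups was -0.25 (adjusted p = 0.139). The call was lost without either wild-type array (adjusted p = 0.269 and 0.132) or either AA-deficient array (0.223 and 0.113), and without the filter on dim genes (0.0941). The list for oxoglutarate had 8 enzymes, of which Sdha and Fh1 neither make nor use oxoglutarate. In AA-deficient knockouts against wild type 6 of the 8 were higher, with a median of 0.062, and 0 passed in limma (4 unadjusted). Ogdh, a subunit of the oxoglutarate dehydrogenase complex, differed by 0.15 (adjusted p = 0.070).

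Markers of other cell types were measured beside these genes. The mean level per array ran from 0.909 to 1.03 for 7 Kupffer cell and macrophage markers, from 1.04 to 1.15 for 7 sinusoidal endothelial markers and from 0.639 to 0.747 for 7 stellate cell markers. It ran from 0.228 to 0.356 for the cholangiocyte markers, with Epcam below the filter, and from 0.103 to 0.342 for the lymphocyte markers, with Cd3g, Ms4a1 and Nkg7 below the filter. Against wild type, AA-deficient knockouts were higher in 7 of 8 hepatocyte markers and 3 of 7 stellate cell markers, with 0 passing. Of the markers tested, 1 of 3 for cholangiocytes and 2 of 3 for lymphocytes were higher, also with 0 passing. They were higher in 7 of 7 Kupffer cell markers (0 passed and 0 had an unadjusted p under 0.05) and in 5 of 7 endothelial markers. Among the endothelial markers Stab2, a scavenger receptor, rose by 0.24 (adjusted p = 0.032 in limma). That call was lost without either wild-type array (adjusted p = 0.218 and 0.101) or either AA-deficient array (0.123 and 0.186), with the span trend removed (0.0619) and without the filter on dim genes (0.0728). The part of cell composition in the differences of the methyltransferase and demethylase genes was not tested.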

How the data were processed

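Each of 6 liver RNA samples has 1 Affymetrix Mouse Gene 1.0 ST array. The deposited values, taken as log10, are the authors' own. Of their making, the software, background correction, normalisation and log base stand as not given in the sources used here. Of 34760 probe sets, 3995 had no value; of the other 30765, the platform annotation gave 1 symbol to 21161, several to 1150 and none to 8454. RefSeq tables (GRCm38.p6) gave spans and promoters. The design had provided for linear values; since they were on a log scale, no pseudocount was used.

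All 6 arrays entered 1 linear fit per gene (lmFit, contrasts.fit and eBayes of limma 3.58.1, run in R 4.3.3), which left 3 residual degrees of freedom beside 4.89 from the prior. Tests are two-sided, with Benjamini-Hochberg adjustment within a comparison over every gene that passed the filter. Arrays have no read depth; their number limits the precision, and no detection call was used. The members and gene lists were chosen with earlier results of these data known. Values on every array are given for genes past the threshold in a pairwise comparison and for the 5 of smallest p in each; the values on every array of a few others were added after they were seen. Alternatives changed the filter, normalisation, probe sets, prior, arrays, replicate block and span trend.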

Additional observations from a re-analysis of the deposited data

How the results depend on the processing

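With 2 arrays a group, a single array decides much of what passes. For AA-deficient knockouts against wild type, 5 of the 35 genes passed in limma as reported, 2 without the filter on dim genes (12 with an unadjusted p under 0.05), and 0 to 6 with 1 array left out, the 0 coming from leaving out either wild-type array; the lone array left is assumed to vary like the other groups. The other settings, apart from the replicate block, gave 4 to 7 genes. For AA-supplemented knockouts, where 0 passed, median centring gave 1 (Kmt2d, adjusted p = 0.0487) and a trend and robust prior 4. For any difference among the 3 groups, where 2 passed, 0 did without the filter (8 unadjusted), 6 with the filter at the 50th percentile, 6 with a trend and robust prior, and 0 to 2 with 1 array left out. Between the knockout groups 0 passed in every setting run. Over all genes, the 679 calls of AA-deficient knockouts against wild type were 173 without the filter, 1057 with the filter at the 50th percentile, 1312 with the other prior, 442 with the span trend removed, 1031 with only those groups in the fit, and 1 to 1031 with 1 array left out. For AA-deficient knockouts against wild type, leaving out either AA-supplemented array gave the same fit as keeping only those groups, so these are not separate checks. Leaving no array out, the alternatives gave 0 to 177 calls in place of 30 between the knockouts, 1 to 116 in place of 1 for AA-supplemented knockouts, and 30 to 894 in place of 200 in the test over 3 groups. Lacking the filter, Kmt2c, Kmt2e and Kdm2a missed the threshold (adjusted p = 0.0623, 0.0728 and 0.0797), as Kdm2a did with median centring (0.0590). Of 33 gene results followed under the alternatives, 5 were called as reported, and only those could lose a call. Of 495 single-gene values under alternatives, 453 kept sign and side of the threshold, 24 lost a call, 10 gained one and 8 changed sign, none of them called. Those were Dot1l in AA-deficient knockouts against wild type (-0.0021 with the span trend removed, -0.013 to 0.042 with 1 array left out) and, with 1 array left out, Setd1b between the knockouts (-0.078 to 0.0070) and Ezh1 (-0.055 to 0.033) and Kdm1b (-0.065 to 0.036) in AA-supplemented knockouts against wild type. The cause was not tested. Over all genes tested, the gap between arrays 1 and 2 correlated at 0.36 between AA-deficient knockouts and wild type. It correlated at -0.37 between the knockout groups and at -0.28 between AA-supplemented knockouts and wild type. Exchanging the numbers of the AA-supplemented arrays would make all of these correlations positive. Whether the arrays share a pairing or a batch under other numbers was not tested. With the replicate number as deposited as a block, 2 of the 35 genes and 163 of all genes passed in AA-deficient knockouts against wild type, without Nnmt (adjusted p = 0.0995 in limma) and Stab2 (0.0716).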
